A study of Mus musculus with 352 samples.

Results

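The cytosolic ribosomal protein genes were followed in tibialis anterior, a shin muscle made mostly of fast fibres, of C57BL/6 mice of both sexes. The set was taken by symbol: every row of the deposited table whose Ensembl identifier belongs to a protein-coding gene with a symbol starting Rpl or Rps, leaving out the Rps6k kinases and symbols holding "-ps". That gave 84 of the 14413 genes in the table, 50 of the large subunit series (Rpl) and 34 of the small (Rps), and 83 of them passed a filter on low values (mean of at least 0 on the log2 scale of FPKM, fragments per kilobase of gene scaled to library size). Rpl24 did not pass, with a mean of -0.75. Rpl10l and Rpl39l were not analysed here.

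The mice fell into 15 groups of 22 to 25 animals, and tissue was taken every 4 h at 6 zeitgeber times (ZT, counted in hours from lights on) from 3 to 5 animals each. Wild-type mice (WT) were 10 to 12 weeks old (called 10 weeks), 26 weeks old, or 85 to 116 weeks old (called old). Mice labelled KO carried Bmal1(stopFL/stopFL) and Cre(-/-), a floxed stop in the clock gene Bmal1. The same allele with Hsa-Cre, a Cre driven by a skeletal actin promoter in muscle, was labelled Mu-RE, with Syt10-Cre, used for the central clock of the brain, Br-RE, and with both, RE-RE. All 5 genotypes were present at 10 and 26 weeks on ad libitum feeding (ALF). Mice of 26 weeks labelled WT, KO and Mu-RE, and old mice, were also kept on time-restricted feeding (TRF). ALF applies below where no schedule is named, and the stop allele was shared by all genotypes other than WT. The comparisons ask how the muscle and brain clocks, age and feeding time bear on these transcripts.

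Ribosomal proteins are assembled with ribosomal RNA in the nucleolus into the small and large subunits that carry out translation. Their messengers start with a pyrimidine tract, the 5′ terminal oligopyrimidine (TOP) sequence, through which mTOR and the RNA-binding protein LARP1 set how much of each messenger is translated, so that protein output can change without a change in messenger level. In striated muscle Rpl3l, a muscle-specific copy of Rpl3, takes the place of Rpl3 in the large subunit.

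As picked examples, start sites are printed for 4 members lower in old muscle, and for 3 members that stood apart from the rest in level or response. Each line gives 30 bases, 15 before and 15 from the RefSeq transcription start (GRCm38.p6), 5′ to 3′ on the strand of the gene, with the letters CTTTC in capitals.
Rpl38, chr11:114668565-114668594, plus strand: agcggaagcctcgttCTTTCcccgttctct
Rps27, chr3:90213634-90213663, minus strand: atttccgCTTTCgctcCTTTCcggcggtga
Rpl35, chr2:39005117-39005146, minus strand: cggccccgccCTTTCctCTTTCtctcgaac
Rplp2, chr7:141447636-141447665, plus strand: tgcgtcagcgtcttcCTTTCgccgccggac
Rpl3l, chr17:24727811-24727840, plus strand: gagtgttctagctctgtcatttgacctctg
Rpl7l1, chr17:46782642-46782671, minus strand: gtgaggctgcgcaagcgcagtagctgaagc
Rps19bp1, chr15:80264292-80264321, minus strand: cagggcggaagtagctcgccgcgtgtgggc
Of the 64 members with a RefSeq start in the reference table, 17 (26.6%) held CTTTC in this window on the sense strand, against 1286 of 27025 genes (4.76%). On the other strand (GAAAG on the sense strand) 3 members (4.69%) and 4.21% of all genes held it. Rpl3l is listed with a second start site, and the first was taken. All 4 printed members lower in old muscle hold these letters, against 26.6% of members, so the examples are not typical of the set. A match describes these letters only, and whether members with and without it differ in response was not tested.

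Values were log2 FPKM as deposited, and a gene was called changed at a Benjamini-Hochberg adjusted p under 0.05 over 9862 genes in a limma model that gave each group its own level and 24 h cosine curve, with a term for sex. Levels were compared only between groups that share a centring set (see the processing account). The skeletal muscle fibre markers were the highest of the marker lists in every group. Arntl, the transcript of Bmal1, had a lowest, median and highest level of 0.78, 2.90 and 5.14 in WT and 3.02, 3.40 and 3.79 in KO muscle at 10 weeks, and was higher in KO by 0.58 (SE 0.09, limma adjusted p = 1.39e-06). Reads over the whole gene do not check the stop allele. In bulk muscle, fewer cells of a type and less RNA per cell cannot be told apart. Members share sequence with 74 Rpl and Rps pseudogene rows of the table, so that reads could be split between copies and single-gene levels are uncertain to that extent.

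Level varied widely between members. Rplp1, an acidic protein of the ribosomal stalk, was highest, with a mean of 8.93 log2 FPKM over all libraries, followed by the stalk protein Rplp0 at 8.68 and by Rpl4 at 8.64. Rpl3l ranked 7 at 8.12. The lowest members that passed the filter were Rps28 at 3.49, Rpl21 at 3.32, Rps19bp1 at 2.83 and Rpl22l1, a paralog of Rpl22, at 2.43. Rps19bp1 meets the symbol rule but encodes a protein that binds ribosomal protein S19, and is not part of the ribosome. Level is per kilobase of the authors' gene model, and Rpl3 itself, for which Rpl3l substitutes, stood at 3.71.

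A property of each library ran through the whole set. Members are short: their median principal transcript was 882 bp (345 to 5179), against 2828 bp for the genes kept. For each library the slope of log2 deviation on log2 exon length was taken over the other kept genes. It ranged from -0.233 to 0.127, and the mean of the 83 members followed it at Pearson r of -0.92 across all libraries, which share groups and times. Within single groups r lay between -0.97 and -0.79. The member mean itself ran from 5.35 to 7.38, a 4.1-fold range, around a median of 6.06.

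**Figure D1:**
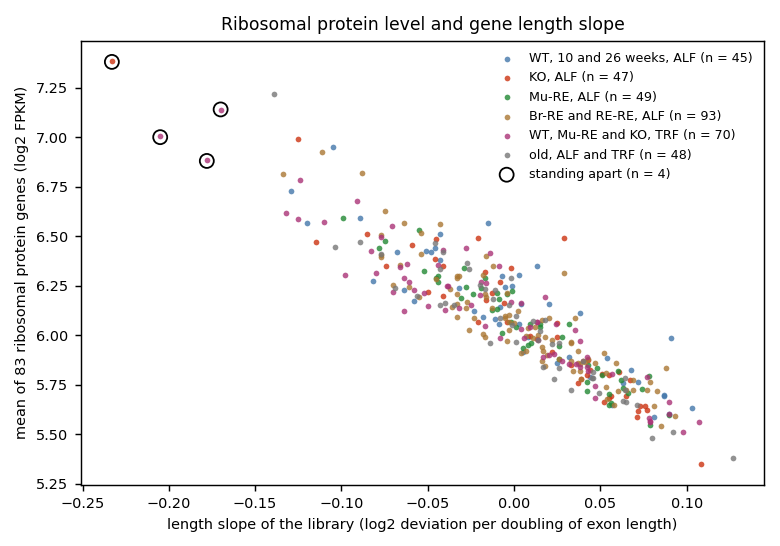
Each point is a library, with its gene length slope on the x axis (log2 deviation per doubling of exon length) and the mean log2 FPKM of the 83 ribosomal protein genes on the y axis, coloured by genotype and feeding; circles mark 4 libraries standing apart. Libraries with more negative slopes have higher ribosomal protein levels, from 5.35 to 7.38, in every group.

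Members did not respond alike to that slope. With group and time means subtracted, 63 of 83 members had r below -0.8 with it, against 362 of the 9862 genes kept. The median r was -0.87 for members and 0.01 for all genes kept. For each 0.1 of slope the log2 level changed by -1.07 for Rpl22l1, -0.94 for Rplp1 and -0.84 for Rps27. The same step went with -0.11 for Rpl3l, -0.14 for Rpl7l1 and -0.24 for Rpsa, the laminin receptor protein of the small subunit. Rpl3l had the weakest r, -0.34. Across members the response correlated with log2 principal transcript length at r = 0.41 and with log2 exon length at r = 0.16 (83 genes, no replicates of each other). The 77 mitochondrial ribosomal proteins, a separate set with a median transcript of 1316 bp, followed the slope at r = -0.87. Subtracting the length trend from each library left the member mean at r = -0.87 with the slope.

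Because of this, each comparison is given as deposited and again with the slope of each library as a covariate. A total of 4 libraries stood apart by slope: KO replicate 3 at ZT 0 on ALF (-0.233), WT replicate 13 at ZT 12 on TRF (-0.205), Mu-RE replicate 15 at ZT 12 on TRF (-0.178) and KO replicate 3 at ZT 0 on TRF (-0.170), all of 26 weeks. Their member means ran from 6.88 to 7.38. Counts of the fits as deposited that change without them are given both ways.

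**Figure D2:**
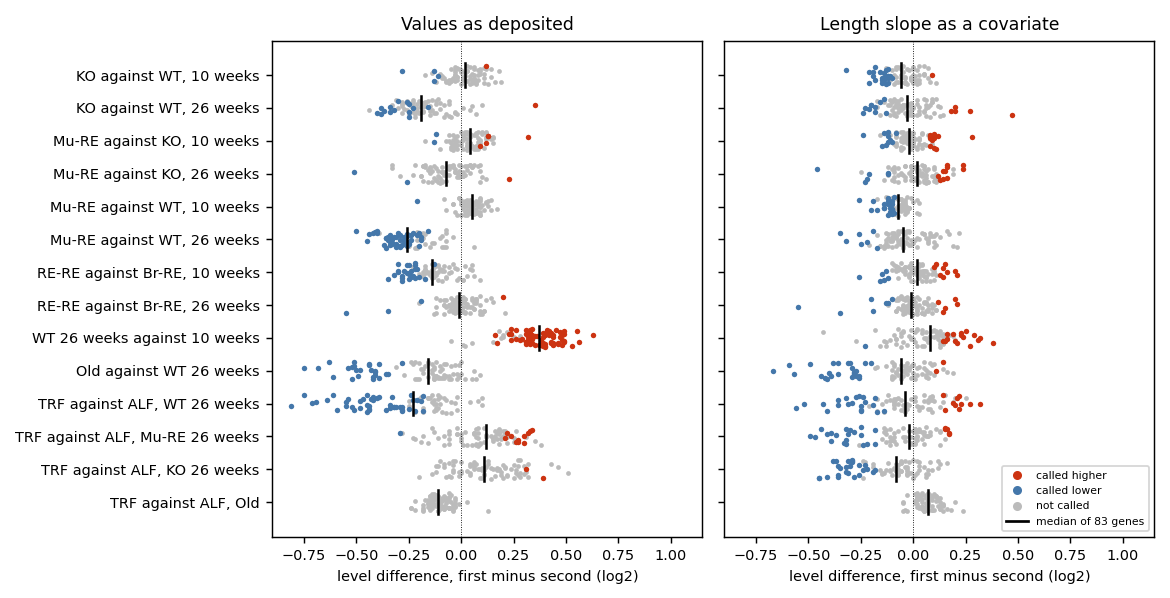
Level difference (log2, x axis) of each of the 83 genes in 14 comparisons (rows), as deposited on the left and with the slope of the library as a covariate on the right; red and blue points were called higher and lower, grey were not called, and bars are medians. The shift of the whole set in WT mice from 10 to 26 weeks, with a median of 0.37, falls to 0.08 with the covariate.

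Rpl3 and Rpl3l differed in opposite directions between KO and WT muscle at 26 weeks. Rpl3 (ENSMUSG00000060036, chromosome 15, 80077791 to 80091868, GRCm38) had a lowest, median and highest level of 3.09, 3.66 and 4.08 in WT, and 3.42, 3.90 and 5.12 in KO muscle. It rose by 0.35 in KO mice (SE 0.10, limma adjusted p = 0.00463). Rpl3l (ENSMUSG00000002500, chromosome 17, 24727820 to 24736143) had 7.86, 8.13 and 8.33 in WT and 7.45, 7.93 and 8.57 in KO muscle. It was lower in KO mice, at -0.16 (SE 0.05, limma adjusted p = 0.00905). The groups overlapped for both genes, and the KO libraries spread over a wider range.

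The muscle Cre went with the opposite differences. In Mu-RE muscle of 26 weeks Rpl3 had 2.92, 3.46 and 4.41, which was -0.51 against KO (SE 0.11, limma adjusted p = 0.000141). Rpl3l had 7.78, 8.17 and 8.45 there, 0.23 above KO (SE 0.05, limma adjusted p = 0.000968). RE-RE against Br-RE at 26 weeks, which differ by the muscle Cre in mice with the brain Cre, gave the same directions. Rpl3 went from 3.43, 4.02 and 4.80 in Br-RE to 2.92, 3.46 and 5.22 in RE-RE muscle, a difference of -0.55 (SE 0.12, limma adjusted p = 0.000215). Rpl3l went from 7.67, 7.99 and 8.37 to 7.82, 8.25 and 8.73, a difference of 0.20 (SE 0.06, limma adjusted p = 0.00441). Mu-RE against KO and RE-RE against Br-RE share no library, while KO against WT and Mu-RE against KO share the KO libraries.

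As a ratio within each library, Rpl3l exceeded Rpl3 by a mean of 4.47 (SD 0.30, n = 22) on the log2 scale in WT muscle at 26 weeks, 22.1-fold. KO muscle had 3.94 (SD 0.51, n = 24), 15.3-fold. Br-RE muscle had 3.95 (SD 0.44, n = 22), 15.5-fold. Mu-RE muscle had 4.68 (SD 0.38, n = 24) and RE-RE 4.71 (SD 0.54, n = 24). On TRF the KO mean was 3.79 (SD 0.53, n = 23), against 4.45 (SD 0.25, n = 24) in WT and 4.75 (SD 0.21, n = 23) in Mu-RE mice. Old mice had 4.45 (SD 0.33, n = 24) on ALF and 4.29 (SD 0.35, n = 24) on TRF. Within each centring set the means of KO and Br-RE muscle were the lowest at 26 weeks. At 10 weeks the means ran from 4.40 in WT to 4.66 in Mu-RE muscle, with 4.53 in KO.

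At 10 weeks neither gene was called between KO and WT. There Rpl3 was at -0.17 (SE 0.09, limma adjusted p = 0.121) and Rpl3l at -0.03 (SE 0.04, limma adjusted p = 0.594). In Mu-RE against KO at 10 weeks Rpl3l was called higher and Rpl3 was not called. That Rpl3l call held in 6 of 10 alternative fits (highest limma adjusted p 0.389). The difference between the 26 and 10 week knockout effects was 0.52 for Rpl3 (SE 0.14, limma adjusted p = 0.00339) and -0.13 for Rpl3l (SE 0.06, limma adjusted p = 0.135), so a difference with age was called for Rpl3 and not for Rpl3l. With the length slope as a covariate, Rpl3 was at 0.47 (KO against WT), -0.46 (Mu-RE against KO) and -0.55 (RE-RE against Br-RE) at 26 weeks, and Rpl3l at -0.13, 0.24 and 0.20, all called. Without the libraries standing apart the first pair of values for Rpl3 was 0.29 and -0.45, both called. Rpl3 was called in these 3 comparisons in every alternative fit (11, 11 and 10), and Rpl3l in KO against WT in 10 of 11, the adjusted p reaching 0.145 with animals left out.

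Cell type markers moved with the knockout contrast. In KO against WT at 26 weeks all but 1 of the 8 endothelial and mural markers were higher, and their summed log2 level had a range of 6.89 to 8.13 in KO and 6.76 to 7.74 in WT muscle. Of 6 fibroblast markers 5 were tested and 3 were lower (summed level 4.70 to 6.95 and 5.95 to 7.79). Of 9 macrophage and lymphoid markers 8 were in the table, 5 were tested and 4 were lower (3.53 to 5.48 and 4.44 to 5.95), with Cd79a, Csf1r and Cd3e under 1 FPKM in both groups. In RE-RE against Br-RE at 26 weeks 2 of 5 fibroblast markers were higher (summed level 5.56 to 7.23 in RE-RE and 5.57 to 7.37 in Br-RE muscle). In Mu-RE against KO at 26 weeks limma called 0 of the 18 markers tested from these 3 lists as deposited, with 2 at an unadjusted p under 0.05, and with the slope as a covariate 4 of 8 endothelial and mural markers were lower. Outside these 3 lists, 3 of 6 muscle fibre markers and the 1 adipocyte marker tested were called in KO against WT. Muscle fibre markers were called in 1 of 6 cases in Mu-RE against KO and in 1 of 6 in RE-RE against Br-RE. The part of cell composition in these differences was not tested.

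**Figure D3:**
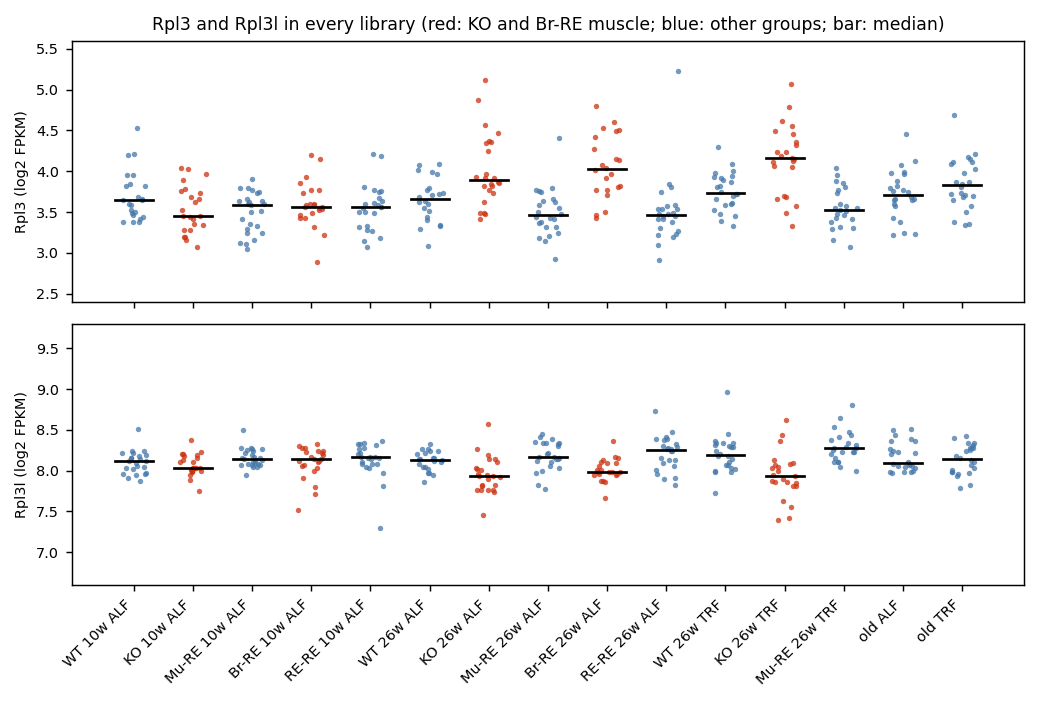
Log2 FPKM of Rpl3 (top) and Rpl3l (bottom) in every library of the 15 groups (x axis), with bars at the medians; KO and Br-RE muscle in red, other groups in blue, each panel spanning the same range of log2 units. At 26 weeks Rpl3 medians are 3.90 in KO and 4.16 in KO on TRF against 3.46 to 3.74 in WT and Mu-RE muscle of both schedules, and 4.02 in Br-RE against 3.46 in RE-RE muscle; the KO medians of Rpl3l are both 7.93.

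Rps19bp1 had the largest called difference at 10 weeks both between KO and WT and between Mu-RE and KO muscle. Rps19bp1 (ENSMUSG00000051518, chromosome 15, 80260615 to 80264315) had 2.27, 2.88 and 3.30 as lowest, median and highest level in WT, 2.11, 2.53 and 3.10 in KO and 2.32, 2.95 and 3.19 in Mu-RE muscle. It was lower in KO than WT, at -0.28 (SE 0.08, limma adjusted p = 0.00595) and higher in Mu-RE than KO by 0.32 (SE 0.08, limma adjusted p = 0.00103). Rpl7l1 (ENSMUSG00000063888, chromosome 17, 46773907 to 46782672), a paralog of Rpl7, had 3.48, 3.75 and 4.16 in WT, 3.40, 3.57 and 3.89 in KO and 3.52, 3.76 and 4.05 in Mu-RE muscle. Its differences were -0.13 (SE 0.05, limma adjusted p = 0.0202) and 0.13 (SE 0.04, limma adjusted p = 0.00576). KO medians were the lowest of the 3 groups for both genes, with overlapping ranges, and all of these calls held with the slope in the model. In the same KO and WT libraries 5 of 5 macrophage and lymphoid markers tested were lower (summed level 3.64 to 5.66 in KO and 4.79 to 6.45 in WT muscle), 6 of 8 endothelial and mural markers higher (7.29 to 7.96 and 6.89 to 7.86) and 5 of 6 muscle fibre markers higher (15.69 to 15.96 and 15.24 to 15.86). In Mu-RE against KO 5 of 8 endothelial and mural markers (7.07 to 7.86 in Mu-RE muscle) and 4 of 6 muscle fibre markers (15.39 to 15.92) were lower. Their part was not tested.

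The rest of the set changed little in these contrasts as deposited. In KO against WT at 10 weeks 5 of 83 members were called, where 20.3% of all genes were called higher and 21.6% lower. The others were Rps6, the target of S6 kinase, at -0.13 (SE 0.05), Rpl4 at -0.11 (SE 0.04) and Rps2, the one higher member, at 0.12 (SE 0.05). Mu-RE against KO at 10 weeks had 5 members higher and 2 lower, against 17.4% and 17.2% of all genes. Rps6 (0.13, SE 0.04) and Rpl4 (0.12, SE 0.04) were among the higher, and Rplp0 (-0.13, SE 0.04) and Rps2 (-0.12, SE 0.05) were the lower ones. With the length slope as a covariate 26 members were called in KO against WT, 25 of them lower (46.3% of all genes called in either direction), and 21 in Mu-RE against KO, 11 of them higher (39.9%). Taken in either direction, these shares of members lie below those of all genes. For the fits with the slope the share of all genes lower alone is not given here, so the 25 lower members have no matching background.

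At 26 weeks 14 members were lower and 1 higher in KO than WT, against 22% and 24.4% of all genes. The lowest of the called members were Rpl36a at -0.40 (SE 0.14, limma adjusted p = 0.0208), Rps4x at -0.38 (SE 0.12, limma adjusted p = 0.00774) and Rps18 at -0.38 (SE 0.14, limma adjusted p = 0.0241), and Rpl3 was the higher one. Rpl22l1 lay at -0.44 (SE 0.23) and was not called (limma adjusted p = 0.113). Rpl7, Rpl5, Rpl22, Rpsa and Rps6 were also lower, by -0.34 to -0.25. The median of all 83 members was -0.19, and 0.00 for all genes. Mean length slopes were -0.002 in KO and -0.032 in WT muscle, and with the slope as a covariate the median was -0.03, with 15 members called, 10 of them lower (48.9% of all genes called). Without the library of KO replicate 3 at ZT 0 the count was 40, 39 of them lower (48.8% of all genes in either direction). The count ranged from 3 to 36 with 1 animal of each time point left out. In Mu-RE against KO at 26 weeks 3 members were called: Rpl3, Rpl3l and Rpl35 at -0.26 (SE 0.09), where 17.3% of all genes were higher and 16.6% lower. Without the libraries standing apart there were 4 (34.4% of all genes in either direction). With the covariate 16 were called, 10 of them higher (41.5% of all genes).

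Mu-RE muscle was set against WT muscle directly. At 10 weeks 1 member was called, Rpl3 at -0.21 (SE 0.08, limma adjusted p = 0.0438), against 13.9% of all genes lower. With the covariate 22 members were called, all lower (29% of all genes in either direction), led by Rpl3 at -0.26 (SE 0.08). For the fits with the slope in this paragraph the share of all genes lower alone is not given, so their one-sided counts have no matching background. At 26 weeks 54 of 83 members (65.1%) were lower in Mu-RE muscle, against 14.5% of all genes. The lowest were Rps27rt at -0.50 (SE 0.09), Rpl35 at -0.45 (SE 0.09) and Rpl38 at -0.44 (SE 0.09, limma adjusted p = 0.000194). Mean slopes stood 0.044 apart in that comparison, and with the slope as a covariate 7 members were called, all lower (20% of all genes in either direction), Rpl35 at -0.35 (SE 0.09), Rps27rt at -0.32 (SE 0.08) and Rpl38 at -0.26 (SE 0.07) among them. Leaving out 1 animal of each time point gave 24 to 47 members in the fit without the slope. Markers moved in the same comparison: 6 of 8 endothelial and mural markers were higher (summed level 6.91 to 7.82 in Mu-RE and 6.76 to 7.74 in WT muscle), and 4 of 5 macrophage and lymphoid (3.65 to 5.65 and 4.44 to 5.95), 3 of 5 fibroblast (5.32 to 7.06 and 5.95 to 7.79) and 3 of 5 red blood cell markers (5.48 to 8.66 and 6.49 to 8.89) were lower. Their part was not tested.

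The stalk proteins Rplp0 and Rplp2 were lower in RE-RE than in Br-RE muscle at both ages. Rplp0, which anchors the Rplp1 and Rplp2 dimers on the large subunit, had 8.40, 8.67 and 9.10 in Br-RE and 8.12, 8.39 and 9.14 in RE-RE muscle at 10 weeks, a difference of -0.23 (SE 0.05, limma adjusted p = 0.000885). Rplp2 had 4.84, 5.29 and 5.87 against 4.47, 5.04 and 5.36, a difference of -0.28 (SE 0.07, limma adjusted p = 0.000717). At 26 weeks the differences were -0.19 for Rplp0 (SE 0.06, limma adjusted p = 0.0197) and -0.35 for Rplp2 (SE 0.10, limma adjusted p = 0.00612). The RE-RE medians were lower in all 4 pairs, with overlap. With the slope as a covariate all 4 were called, Rplp2 at -0.26 and -0.35 and Rplp0 at -0.14 and -0.19. Over all alternative fits both calls of 10 weeks held in 10 of 10. At 26 weeks Rplp0 held in 6 of 10 (highest limma adjusted p 0.278) and Rplp2 in 8 of 10. In Mu-RE against KO Rplp2 was called at neither age and Rplp0 at 10 weeks only. Rplp1 was called at 10 weeks only (-0.25, SE 0.08, limma adjusted p = 0.0106), and not with the covariate. In RE-RE against Br-RE at 10 weeks limma called 4 of 6 muscle fibre markers and the 1 satellite cell marker tested. With the slope as a covariate these counts were the same, all lower. Summed fibre level was 15.30 to 15.79 in RE-RE and 15.60 to 16.08 in Br-RE muscle. As deposited 1 of 8 endothelial and mural and 1 of 2 Schwann and nerve markers were also called. The part of these markers was not tested.

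Counts in this contrast differed with age and with the slope. At 10 weeks 26 members were lower in RE-RE muscle (17.4% of all genes lower), among them Rps29 at -0.35 (SE 0.09) and Rpl36 at -0.30 (SE 0.07). Mean slopes were 0.031 in RE-RE and 0.002 in Br-RE muscle. In the fit with the slope 15 were called, 9 of them higher, Rpl4 at 0.21 (SE 0.05) and Rps6 at 0.20 (SE 0.04) being the highest (35.1% of all genes called), so that the direction of the count turned. It ranged from 4 to 64 with 1 animal of each time point left out. At 26 weeks 3 members were lower (18.9% of all genes) and 1 higher (16.5%), the 4 genes named above. With the covariate 12 were called, 7 of them lower (41.7% of all genes), and mean slopes differed by -0.001.

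From 10 to 26 weeks nearly the whole set rose in WT muscle. Of 83 members 70 (84.3%) were higher and 0 lower, against 20.9% of all genes higher. The largest rise was in Rpl38 (ENSMUSG00000057322, chromosome 11, 114668524 to 114672331), a small protein of the large subunit, from 4.82, 5.26 and 5.95 as lowest, median and highest level to 5.23, 5.92 and 6.51. It rose by 0.63 (SE 0.10, limma adjusted p = 5.77e-06). Rpl35a was at 0.56 (SE 0.11) and Rps27rt, an intronless near-copy of Rps27 whose reads cannot be told from those of its parent with certainty, at 0.55 (SE 0.10). Rpl3, Rpl3l, Rpl7l1, Rps19bp1, Rps19, Rpl22l1 and Rplp1 were among the 13 members not called. Ribosomal proteins that carry other symbols rose too, among them Fau by 0.26 (SE 0.09) and Rack1 by 0.22 (SE 0.05), as did 7 of 17 TOP messengers outside the ribosome and 47 of 77 mitochondrial ribosomal proteins. With the slope as a covariate 4 of the 17 TOP messengers were higher, and of the mitochondrial proteins 4 were higher and 4 lower. Fau (-0.05, SE 0.05) and Rack1 (0.12, SE 0.06) were not called in that fit.

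The length slope moved with that rise. Its mean was 0.029 in WT muscle of 10 weeks and -0.032 at 26 weeks, the widest gap of the 14 comparisons. With the slope as a covariate 16 members were higher (12% of all genes) and 1, Rpl3, lower at -0.23 (SE 0.08; 8.9% of all genes lower). Rpl38 remained at 0.38 (SE 0.09, limma adjusted p = 0.0022), Rps27rt at 0.32 (SE 0.10), Rpl35 at 0.31 (SE 0.09) and Rps26 at 0.29 (SE 0.07). Of the 70 members, 16 were called higher in both fits, and leaving out 1 animal of each time point gave 40 to 74 without the slope. In the same comparison the 5 red blood cell markers were all higher (summed level 6.49 to 8.89 at 26 and 4.28 to 7.80 at 10 weeks). Of 8 endothelial and mural markers 7 were lower (6.76 to 7.74 and 6.89 to 7.86). Also called were 3 of 3 tendon, 3 of 5 fibroblast, 2 of 5 macrophage and lymphoid and 3 of 6 muscle fibre markers. With the slope as a covariate 5 endothelial and mural, 3 fibroblast, 3 macrophage and lymphoid and 2 tendon markers were lower. In that fit 2 red blood cell and 2 muscle fibre markers were higher. Their part was not tested.

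In old muscle many short members were lower than in WT muscle of 26 weeks. A total of 25 members (30.1%) were lower and 0 higher, against 11.2% of all genes lower. The called members had a median principal transcript of 584 bp and the others 976 bp. Rpl38 had 4.61, 5.18 and 6.56 in old muscle, against 5.23, 5.92 and 6.51, a difference of -0.68 (SE 0.11, limma adjusted p = 2.28e-05). Rps27rt was at -0.75 (SE 0.12) and Rpl35 (ENSMUSG00000062997, chromosome 2, 39001580 to 39005624) at -0.63 (SE 0.11). Rps27, a zinc finger protein of the small subunit whose start site is printed above, was at -0.52 (SE 0.14), its paralog Rps27l at -0.41 (SE 0.11), Rpl36a at -0.49 (SE 0.13), Rpl39 at -0.44 (SE 0.14) and Rplp2 at -0.35 (SE 0.12). Old medians were the lower ones for Rpl38, while the highest old library lay above the highest of 26 weeks.

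Once the slope was in the model, 25 members remained lower in old muscle, the same 25 genes (12% of all genes lower), and 2 were higher, Rps2 at 0.11 (SE 0.04) and Rpl8 at 0.14 (SE 0.04; 13.9% of all genes higher). Rpl38 was then at -0.59 (SE 0.09), Rps27rt at -0.67 (SE 0.11), Rpl35 at -0.57 (SE 0.10) and Rpl37 at -0.49 (SE 0.07). Across the 83 members the difference correlated with log2 transcript length at r = 0.37 in that fit. Leaving out 1 animal of each time point gave 9 to 41 members lower in the fit without the slope. All 5 fibroblast markers tested, of 6, were lower in the same comparison. The summed fibroblast level was 4.36 to 7.77 in old and 5.95 to 7.79 in WT muscle of 26 weeks. All 3 tendon markers were called too, and with the slope as a covariate 2 were lower and 1 higher. As deposited 2 of 6 muscle fibre markers, 2 of 8 endothelial and mural markers and the 1 satellite cell marker tested were also called. The part of these markers was not tested. This comparison, those of Mu-RE with WT and of TRF with ALF in WT at 26 weeks, and those of KO with WT at 26 weeks and of WT at 26 with 10 weeks share the WT libraries of 26 weeks on ALF.

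Time-restricted feeding was followed in 4 backgrounds. In WT mice 45 members (54.2%) were lower on TRF and 0 higher, against 20.1% of all genes lower. Rps27rt was at -0.81 (SE 0.15), Rpl35 at -0.75 (SE 0.11, limma adjusted p = 5.25e-06) and Rpl38 at -0.71 (SE 0.14). Rpl35 had 5.20, 5.96 and 6.63 as lowest, median and highest level on ALF and 4.65, 5.06 and 6.50 on TRF, with overlap. Rps27l fell by 0.61 (SE 0.11), and Rpl7l1 by 0.19 (SE 0.04). Without the library of WT on TRF replicate 13 the count was 57 (45.5% of all genes in either direction). The count ranged from 22 to 48 with 1 animal of each time point left out. Ribosome assembly factors were lower as well, 12 of 28, with Nop10 at -0.52 (SE 0.11) and Pno1 at -0.45 (SE 0.06), and 1 higher. In the same comparison 6 of 8 endothelial and mural markers were higher (summed level 6.98 to 7.75 on TRF and 6.76 to 7.74 on ALF), and their part was not tested.

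In Mu-RE mice 11 members were higher on TRF (9.05% of all genes) and 1 lower, Rpl37 at -0.29 (SE 0.09; 7.87% of all genes lower). Among the higher were Rpl21 at 0.34 (SE 0.10) and Rps4x at 0.32 (SE 0.08). In KO mice 2 members were higher, Rpl12 at 0.39 (SE 0.12) and Rpl17 at 0.31 (SE 0.11), against 4.78% of all genes. In old mice limma called 0 members, with 3 at an unadjusted p under 0.05 and a median of -0.11. Without the libraries standing apart the count in Mu-RE mice was 9 higher and 3 lower (12.6% of all genes in either direction). In KO mice 5 were then higher (16.3% of all genes in either direction). Endothelial and mural markers were lower on TRF in 2 of 8 cases in Mu-RE mice (summed level 6.65 to 7.57 on TRF and 6.91 to 7.82 on ALF) and in 3 of 8 in KO mice (6.68 to 7.68 and 6.89 to 8.13), and their part was not tested. Mean slopes differed by 0.048 between TRF and ALF in WT, by -0.034 in Mu-RE and by -0.042 in KO mice.

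With the slope as a covariate many short members were lower on TRF in Mu-RE and KO mice of 26 weeks, while in WT mice the share of members lower was near that of all genes. In WT mice 20 of 83 were lower (19.8% of all genes) and 10 higher (20.8%). In Mu-RE mice 20 were lower (2.91% of all genes) and 5 higher (2.61%), and in KO mice 25 were lower (7.38%) and 0 higher, so that in Mu-RE and KO mice the direction of the count turned. Rpl35a was at -0.41 (SE 0.06) in WT, -0.37 (SE 0.05) in Mu-RE and -0.45 (SE 0.06) in KO mice. Rpl38 was at -0.43 (SE 0.12), -0.39 (SE 0.06) and -0.45 (SE 0.10), and Rpl37 at -0.36 (SE 0.08), -0.49 (SE 0.04) and -0.41 (SE 0.07). These 3 comparisons share no library. Mu-RE and KO mice had 18 lower members in common, 90% of the Mu-RE list and 72% of the KO list. The matching overlap over all genes is not given here, so shared counts in this paragraph have no background. All 3 genotypes shared 11, among them Rpl23, Rpl27, Rpl30, Rpl36a, Rpl41 and Rps26, with a median transcript of 681 bp against 914 bp for the other 72. The higher members in WT were Rplp1 at 0.32 (SE 0.12), Rpl8 at 0.27 (SE 0.05), Rpl3 at 0.23 (SE 0.06), Rps19 at 0.22 (SE 0.09), Rpl3l at 0.20 (SE 0.05) and 5 others. In old mice limma again called 0 members, with 15 at an unadjusted p under 0.05.

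**Figure D4:**
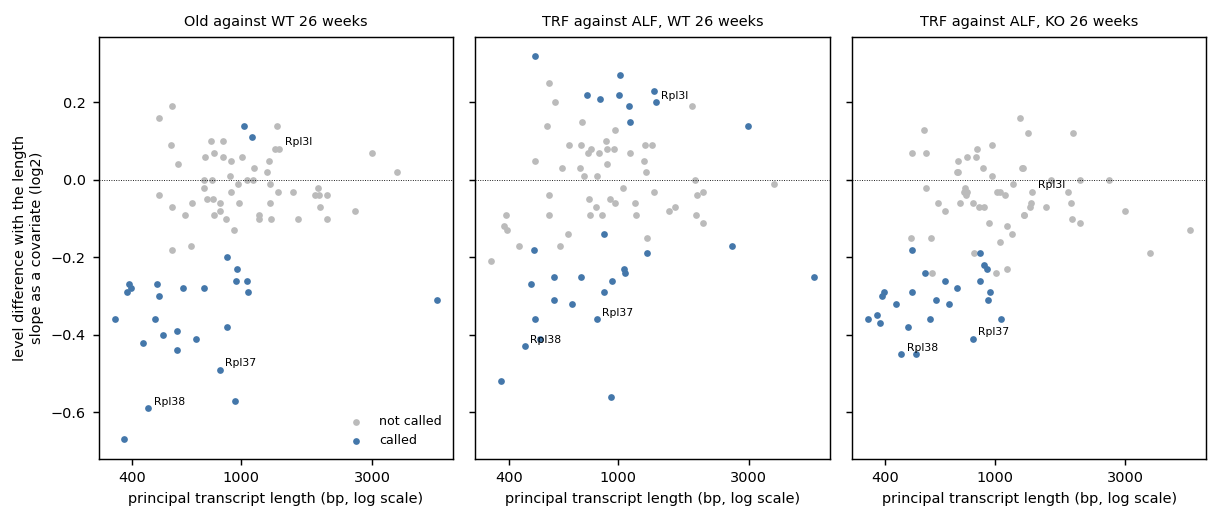
Level difference from the fit with the slope (log2, y axis) against principal transcript length (bp, log scale, x axis) for the 83 genes in 3 comparisons; blue genes were called and grey were not. Called lower genes lie mostly among the shorter transcripts, with Rpl38 (457 bp) at -0.59, -0.43 and -0.45, and Rpl3l (1375 bp) at 0.08, 0.20 and -0.03.

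The feeding effect itself was compared between groups. KO minus WT, it was higher for 37 members and lower for 0, against 11% of all genes higher, with Rps27rt at 0.69 (SE 0.22), Rpl35 at 0.63 (SE 0.17) and Rps25 at 0.60 (SE 0.17). In the fit with the slope 6 members were called (5.37% of all genes in either direction), all lower and none among those 37. They included Rpl14 at -0.45 (SE 0.12) and Rpl3 at -0.33 (SE 0.10). The share of all genes lower alone is not given here for that fit. Old minus WT of 26 weeks, Rps27rt at 0.67 (SE 0.19) and Rpl35 at 0.59 (SE 0.15) were called higher, against 0.994% of all genes. With the covariate 11 members were higher, both of these included (2.37% of all genes). The knockout effect at 26 against 10 weeks differed for Rpl3 and for Rpl12, at -0.36 (SE 0.13, limma adjusted p = 0.0481), where 10.6% of all genes were higher and 8.17% lower. With the covariate Rpl12 was not called, and Rpl3, Rps20 and Rps19bp1 were (20.1% of all genes).

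A daily rhythm of the set was called in Br-RE muscle of 10 weeks. Of 83 members 72 (86.7%) were called, against 29% of all genes, with peaks between ZT 3.4 and 5.7 and peak-to-trough folds of 1.17 to 1.73. The mean of the members was 6.11 at ZT 0, 6.42 (SD 0.21, n = 4) at ZT 4, 6.05 at ZT 8, 5.97 at ZT 12, 5.87 (SD 0.04, n = 4) at ZT 16 and 5.90 at ZT 20. Every mouse at ZT 4 (6.19 to 6.63) lay above every mouse at ZT 16 (5.82 to 5.92). Rpl38 had the largest amplitude, 0.40 (SE 0.07, limma adjusted p = 0.00319), with time means from 6.17 at ZT 4 to 5.26 at ZT 20. Rps29 (0.38, SE 0.08) and Rpl39 (0.36, SE 0.08) followed. Rpl3l, Rpl7l1, Rps19bp1 and Rplp2 were among the 11 members not called.

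The length slope ran opposite to the level over the day in those mice, with its lowest mean, -0.057, at ZT 4 and its highest, 0.031, at ZT 20. With the slope as a covariate limma called 0 of the 83 (1.93% of all genes), with a smallest adjusted p of 0.273 for Rpl3. Leaving out 1 animal of each time point gave 21 to 67 rhythmic members. The rhythm was not called different from that of KO muscle for any member by limma (0 called, 51 at an unadjusted p under 0.05, smallest adjusted p 0.0512 for Rpl41), nor from RE-RE muscle (0 called, 33 at an unadjusted p under 0.05). In Br-RE muscle of 26 weeks limma called 0 members, with 21 at an unadjusted p under 0.05.

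**Figure D5:**
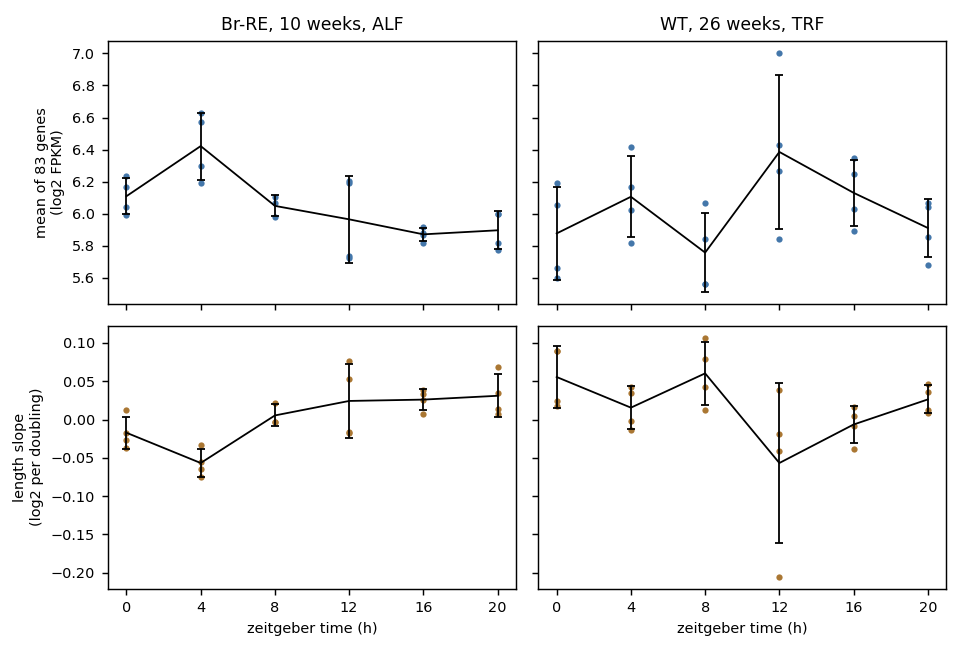
Mean log2 FPKM of the 83 genes (top) and length slope (bottom) against zeitgeber time in Br-RE muscle of 10 weeks and in WT muscle of 26 weeks on TRF; points are mice, lines join means and bars are SD. In Br-RE muscle the level peaks at ZT 4 (6.42) where the slope is lowest (-0.057), and in WT muscle on TRF at ZT 12 (6.39, slope -0.057); without replicate 13, which stood apart, ZT 12 is at 6.18 with a slope of -0.007, beside 6.13 and -0.007 at ZT 16.

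On time-restricted feeding 12 members cycled in WT muscle, with peaks between ZT 13.6 and 17.1, where 37.8% of all genes did. Leaving out 1 animal of each time point gave 2 to 19, and without replicate 13 at ZT 12 there were 14 (44.2% of all genes), 11 of them among the 12, with peaks between ZT 14.2 and 21.5. Rps27a, a ubiquitin fusion, had an amplitude of 0.28 (SE 0.09), Rpl10 of 0.27 (SE 0.07) and Rpl7 of 0.26 (SE 0.06). Rpl7l1 had the smallest p (amplitude 0.25, SE 0.04, peak ZT 17.1, limma adjusted p = 0.0005), with means of 3.44 at ZT 0, 3.41 at ZT 4, 3.32 at ZT 8, 3.66 at ZT 12, 3.79 at ZT 16 and 3.75 at ZT 20. It was high in the dark phase and low at ZT 8, where its highest mouse (3.40) lay below the lowest at ZT 12 (3.51). In WT mice on ALF its means ran from 3.60 to 3.88, and the difference in rhythm was called, at 0.29 (limma adjusted p = 0.0208), where 3.92% of all genes were called. Rpl7l1 also cycled in Mu-RE mice on TRF (amplitude 0.21, SE 0.05, peak ZT 18.3, limma adjusted p = 0.0394; 6.97% of all genes), the one member called there, also without replicate 15 at ZT 12 (amplitude 0.22, SE 0.05). Its rhythm in WT mice on TRF was called in all 10 alternative settings and in Mu-RE mice in 5 of 10.

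Once the slope was in the model, 15 members cycled in WT mice on TRF (43.7% of all genes). Rpl7l1, Rpl5, Rpl7, Rpl10 and Rpl12 were called in both fits and kept a peak between ZT 14.2 and 17.4. The other 10 peaked between ZT 23.2 and ZT 3.6, led by Rplp2 with an amplitude of 0.42 (SE 0.10, peak ZT 2.8), and included Rps19bp1 (0.24, SE 0.04, peak ZT 23.2). Ribosome assembly factors cycled in the fit as deposited in 19 of 28 cases, where 37.8% of all genes did. Among them Nop56 had an amplitude of 0.40 (SE 0.05, peak ZT 14.8) and Gnl3 of 0.31 (SE 0.04, peak ZT 15.2). Mtor (0.25, SE 0.07, peak ZT 2.8) and Larp1 (0.34, SE 0.05, peak ZT 2.5), which govern translation of TOP messengers, peaked in the light phase. In the other 12 groups limma called 0 rhythmic members, with 0 to 21 at an unadjusted p under 0.05.

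Assembly and control genes were also followed in the genotype comparisons. In KO against WT at 10 weeks 9 of 28 assembly factors were lower (21.6% of all genes lower), with Rrp12 at -0.61 (SE 0.10) and Utp20 at -0.52 (SE 0.07), and 3 were higher (20.3% of all genes), with Bop1 at 0.21 (SE 0.05). At 26 weeks 6 of 28 were lower, a share near the 22% of all genes lower, with Utp20 at -0.55 (SE 0.08) and the rRNA methyltransferase Fbl at -0.37 (SE 0.07), and 2 higher (24.4% of all genes). Utp20 stood 0.75 higher (SE 0.07) in RE-RE than Br-RE muscle at 26 weeks. Of 10 RNA polymerase I genes 2 were called in each knockout comparison, Polr1a at 0.25 (SE 0.07) and 0.41 (SE 0.08) in both, a smaller share than that of all genes. Among 11 genes of mTOR and TOP control, 4 were called in each knockout comparison, a share no larger than that of all genes. Mtor was at -0.38 (SE 0.08) in KO at 10 weeks and 0.28 (SE 0.10) at 26 weeks, the latter 0.16 (SE 0.07) and not called with the slope as a covariate, and Ddit4, an inhibitor of mTOR, at 1.60 (SE 0.33) at 26 weeks.

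The genes outside the set most like its mean over all libraries, after group and time means were subtracted, were Fau, itself a ribosomal protein gene, Nedd8, Ndufa7 and Sem1, each at r = 0.96, and Uqcc2 at 0.95. From values with the length trend subtracted they were Sem1 and Atp5l, both at 0.94, and Ndufa7, Psmb3 and Pdcd5, each at 0.93. These libraries share the slope described above.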

How the data were processed

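RNA was sequenced from whole muscle as read pairs, and some libraries were excluded by the submitters for quality, per the labels; depth per library is not in the file. Per the submitters' processing notes GRCm38 was used with these tools, in no stated order: limma 3.44.1, edgeR 3.30.0, featureCounts 1.6.2, HISAT2 2.1.0, Trim Galore 0.5.0 and FastQC 0.11.8. The values deposited by the authors are log2 FPKM, with a floor of -6.64 (log2 of 0.01); counts were not used here. In 259 libraries, and in each Br-RE and RE-RE set (47 at 10 weeks, 46 at 26 weeks), gene means of the sexes were equal to within 1e-05, and each such set had the gene means of the 71 or 140 other libraries of its age. Sexes and sets were therefore not compared in level; no source used here names the step that made this.

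Genes with a mean of at least 0 were kept (9862). Models used limma 3.58.1 in R 4.3.3 (trend and robust options), fitted on the groups compared: two-sided moderated tests of level and F tests of rhythm. Tables and plots used Python 3.11.15, pandas 2.3.3, numpy 2.4.6 and matplotlib 3.10.9. On simulated data with 9862 genes, limma recovered 67% of level changes of 0.3 and 91% of 0.6 between WT groups of 26 and 10 weeks, and 51% and 92% of rhythms of amplitude 0.25 and 0.5 in Br-RE muscle of 10 weeks. Unchanged genes called there numbered 9 for level and 10 for rhythm. Noise was drawn separately for each gene, while real libraries share the length slope, so shared shifts of the set were not simulated. Lengths came from GENCODE M21; the slope used exon lengths of 99.7% of kept genes, members left out. Members and lists were chosen with earlier results of these data known. Named genes were a list of members (paralogs, stalk proteins and others such as Rps6, Rpl5 and Rpl11) and, per comparison, up to 3 called members furthest from 0 in each direction; those named from fits with the slope, and others beyond that rule (such as Rpl4, Rps2, Rpl8 and the members shared across feeding comparisons), were chosen after their values were seen. Alternatives were the slope as a covariate, its trend subtracted, a pseudocount of 1 FPKM, no filter, libraries centred on their median, 1 animal left out per time point, a replicate block and, added after the data were seen, fits without 4 libraries. Mice are separate animals per the labels. Values of some single genes are not reported here.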

Additional observations from a re-analysis of the deposited data

Results flagged for a closer look

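The effect of the knockout differed between 26 and 10 weeks for 2 members by a test of the difference itself, Rpl3 at 0.52 (SE 0.14, limma adjusted p = 0.00339) and Rpl12 at -0.36 (SE 0.13, limma adjusted p = 0.0481). With the length slope as a covariate Rpl3 was at 0.68 (SE 0.10) and Rpl12, at -0.16 (SE 0.08), was not called.

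The effect of time-restricted feeding differed between KO and WT mice for 37 members, with Rps27rt at 0.69, Rpl35 at 0.63 and Rps25 at 0.60, all higher in KO minus WT. With the length slope as a covariate 6 members were called, all lower and none of them among the 37. Without the 4 libraries standing apart 64 were higher (33.9% of all genes in either direction). It differed between old mice and WT mice of 26 weeks for 2, Rps27rt at 0.67 and Rpl35 at 0.59, and for 11 with the covariate, these included. Both tests share the WT libraries of 26 weeks.

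The daily course differed between TRF and ALF in WT mice for 1 member, Rpl7l1, with an amplitude of the difference of 0.29 (SE 0.06, limma adjusted p = 0.0208).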

How the results depend on the processing

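With the length slope in the model the number of members called was 26 in KO against WT and 21 in Mu-RE against KO at 10 weeks, 22 and 7 in Mu-RE against WT at 10 and 26 weeks, 12 in RE-RE against Br-RE at 26 weeks, 17 in WT of 26 against 10 weeks and 11 for the feeding effect of old against WT mice. Rhythmic members were then 7 in WT and 0 in Br-RE muscle of 10 weeks, 5 in Br-RE muscle of 26 weeks, and 2 each in Mu-RE and KO mice on TRF. The balance of directions turned for Mu-RE against KO at 26 weeks (16), RE-RE against Br-RE at 10 weeks (15), TRF in Mu-RE (25) and KO mice (25), and the feeding effect of KO against WT (6). Estimates changed sign, none called, for Rpl39 (-0.05), Rplp2 (-0.11), Rps18 (-0.00) and Rps27a (-0.00) in WT of 26 against 10 weeks, and for Rpl10 (-0.02), Rpl11 (-0.01), Rpl13a (-0.03) and Rps18 (-0.01) in the feeding effect of KO against WT. With the length trend subtracted, calls numbered 23 in KO against WT, 7 in Mu-RE against KO and 8 in RE-RE against Br-RE at 26 weeks, 2 in Mu-RE against WT at 10 weeks, 4 for TRF in KO mice, 4 for the knockout effect by age, 8 for the feeding effect of old against WT, 19 for the rhythm of WT mice on TRF and 2 for the rhythm difference of Br-RE against KO at 10 weeks. An alternative chosen after seeing the data left out the 4 libraries of steepest slope. Calls then numbered 40 in KO against WT at 26 weeks (48.8% of all genes), 5 for TRF in KO mice (16.3%) and 11 for the knockout effect by age (22.1%). They numbered 64 and 5 for the feeding effects of KO and of old against WT (33.9% and 3.14%). A pseudocount of 1 FPKM gave 1 for the rhythm difference of Br-RE against KO. No filter gave 1 for the knockout effect by age and 1 for the feeding effect of old against WT. Median centring gave 3 in KO against WT at 10 weeks, 4 for the knockout effect by age, 1 for the rhythm of WT at 10 weeks, 0 for that of Mu-RE on TRF and 1 for the rhythm difference of Br-RE against KO. Causes of these changes were not tested.

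Leaving out 1 animal of each time point in turn gave 1 to 3 calls in KO against WT at 10 and 3 to 36 at 26 weeks, 3 to 4 and 2 to 7 in Mu-RE against KO, 0 to 1 and 24 to 47 in Mu-RE against WT, 4 to 64 and 2 to 11 in RE-RE against Br-RE, 40 to 74 in WT of 26 against 10 weeks, 9 to 41 in old against WT, 22 to 48, 1 to 12 and 0 to 12 for TRF in WT, Mu-RE and KO mice, 1 to 3 for the knockout effect by age, and 0 to 35 and 0 to 2 for the feeding effects of KO and of old against WT. The balance of directions turned in 1 such fit of Mu-RE against KO (3 calls) and 1 of RE-RE against Br-RE (6 calls), both at 26 weeks. Rhythms numbered 0 to 1 in WT and 21 to 67 in Br-RE muscle of 10 weeks, 2 to 19 and 0 to 0 in WT and Mu-RE mice on TRF, and 0 to 1 for the rhythm difference of TRF against ALF in WT.

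Same-numbered libraries correlated above 0.1 in 142 of 309 pairs, with a median r of -0.05 to 0.18 by comparison. Differently numbered libraries were not set beside them, so this does not decide whether the numbers pair mice. With the number as a replicate block, calls numbered 3 in KO against WT and 13 in Mu-RE against KO at 10 weeks, 17 in Mu-RE against KO at 26 weeks, 16 in RE-RE against Br-RE at 10 weeks, and 24 and 13 for TRF in Mu-RE and KO mice. For named members 100 calls held under that block and 8 did not. The number of libraries per time point, 3 to 5, limits rhythms, and depth per library is unknown.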
